A study of Mus musculus with 12 samples.

Results

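The replication-dependent histone genes of the mouse were followed through the embryonic dorsal cortex with and without Ash2l. They were taken as every gene whose symbol begins with Hist1h, Hist2h, Hist3h or Hist4h, which gave 69 of the 27179 genes in the deposited tables. The series holds 12 libraries of bulk dorsal cortex RNA from C57BL/6 mice, at E14.5 and E16.5, in days of embryonic development. Each age has 3 wild-type (WT) libraries and 3 libraries of an Ash2l conditional knockout (cKO), in which Cre driven by D6, active in the dorsal telencephalon, deletes the gene. ASH2L is a core subunit of the COMPASS complexes that methylate lysine 4 of histone H3. D6-Cre does not reach every cell of the tissue, and the labels say neither what the WT embryos carry of the floxed alleles or Cre, nor whether a library is 1 embryo.

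These genes supply the histones that package newly copied DNA. Their mRNAs accumulate in S phase, end in a conserved stem-loop bound by the protein SLBP in place of a poly(A) tail, and are degraded when DNA synthesis stops. H2A, H2B, H3 and H4 form the core of the nucleosome and H1 binds the linker DNA. In the embryonic cortex, dividing progenitors lie near the ventricle and neurons that have left the cell cycle lie above them, so bulk tissue mixes cells that make these mRNAs with cells that do not.

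By the class in their symbols, 6 members belong to H1, 19 to H2A, 19 to H2B, 12 to H3 and 13 to H4. GENCODE gives a coding sequence for 67 of them, but not for Hist1h2al or Hist3h2bb-ps. Current symbols mark both as pseudogenes (H2af-ps2 and H2bu1-ps). The Hist1 cluster holds 55 members on chromosome 13 (mm10), in a distal block of 23 members from 21715763 to 22043610 and a proximal block of 31 from 23531044 to 23934851. Hist1h2al lies alone on the same chromosome, from 51200084 to 51205954. Hist2 has 10 members on chromosome 3 from 96219916 to 96270192, Hist3 has 3 on chromosome 11 from 58948911 to 58956674, and Hist4h4 is the 1 Hist4 gene, on chromosome 6 from 136801553 to 136804431. All H1 members lie in Hist1, and the H3 members in Hist1 (9) and Hist2 (3). Hist1h2aa had no count in any library. A further member, Hist1h2ba, had a total under 12 counts.

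The stem-loop is shown because it separates these mRNAs from other transcripts and because its few letter changes run along the classes. GENCODE M21 transcripts of 44 members held, on the transcript strand after the coding sequence, GG, any pair of bases, CTTTT, any base, AG, any pair of bases and CC. The form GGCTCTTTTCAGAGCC was present in 26 members, in H1, H2A, H2B and H3 genes, and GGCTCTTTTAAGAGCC in 6. The H4 genes had their own forms, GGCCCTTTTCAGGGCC in 7 members, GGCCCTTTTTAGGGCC in 2 and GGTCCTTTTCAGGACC in 2. Capitals mark the 16-base stem-loop with 5 flanking bases on each side, and coordinates are mm10.
Hist3h2a (chr11:58955167-58955192, plus strand): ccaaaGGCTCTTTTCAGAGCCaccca
Hist3h2ba (chr11:58949344-58949369, plus strand): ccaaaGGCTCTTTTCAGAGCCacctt
Hist1h3d (chr13:23576239-23576264, plus strand): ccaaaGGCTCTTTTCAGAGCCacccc
Hist1h3e (chr13:23561898-23561923, minus strand): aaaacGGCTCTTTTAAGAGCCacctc
Hist2h2ac (chr3:96220413-96220438, minus strand): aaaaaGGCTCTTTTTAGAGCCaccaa
Hist1h4c (chr13:23698084-23698109, minus strand): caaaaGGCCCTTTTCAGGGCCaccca
Hist1h4b (chr13:23757361-23757386, plus strand): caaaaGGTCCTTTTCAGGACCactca
Hist3h2a and Hist3h2ba carried the common form, so their loop letters did not set them apart, while Hist3h2bb-ps had no match. No loop was searched for in transcripts other than those GENCODE lists. Hist3h2a and Hist4h4 have transcripts that run 1643 and 2445 bases past the loop, while that of Hist1h4b ends 28 bases after it.

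Library totals ran from 14318147 to 24719047 counts, and the 69 members took 0.488% to 0.808% of the counts at E14.5 and 0.213% to 0.350% at E16.5. Levels are CPM, counts scaled to TMM-adjusted library sizes, and the libraries of a group are lettered A, B and C in the order of the numbers in their labels. By Xist and Y-linked transcripts every E14.5 WT library was male and every E14.5 cKO library female, so embryo sex and genotype cannot be told apart at that age. At E16.5, WT A and cKO C were female and the other 4 libraries male. E14.5 cKO A stood apart, with a summed level of 6 meningeal fibroblast markers of 340.0 CPM against 12.4 to 45.3 CPM in the other 11 libraries. Choroid plexus markers summed to 476 CPM in E14.5 WT A and 618 CPM in E16.5 WT C, against 7.64 to 59.4 CPM in the other 10. Markers of GABAergic and ventral telencephalon cells, 9 in all, summed to 309 CPM in E14.5 WT B, against 22.6 to 181 CPM in the other 11. That library also had the highest sum of neuron markers at E14.5, 6312 CPM. Ash2l itself was at 126, 143 and 118 CPM in WT and 46.9, 59.9 and 51.4 CPM in cKO at E14.5, and at 135, 129 and 135 CPM against 54.4, 60.6 and 59.3 CPM at E16.5. On the log2 scale it was lower in cKO by the test, at -1.28 for E14.5 (SE 0.121, edgeR adjusted p = 0.0124) and at -1.20 for E16.5 (SE 0.0683, edgeR adjusted p = 8.19e-04). Markers of apical progenitors and of neurons, 12 of each, were all detected well enough to be tested.

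Whether poly(A) RNA was selected is not given in the sources used here. Other RNAs without a poly(A) tail were abundant in every library: the ribosomal RNA gene Rn45s stood at 22665 to 59432 CPM. Gene models matter too, since 45 members are single blocks whose length is a multiple of 3. Such a length alone does not make a model coding-only: that of Hist1h3a, at 534 bases, is as long as its full transcript. For the 32 members with exactly their GENCODE coding length, fragments lying wholly in the untranslated ends, loop included, were not counted. Near-identical copies make single members less certain. Within the coding sequences, 8 members have an identical copy, in 4 pairs. The median member has a sequence of its own in 89.1% of its 50-base windows in H1, but in 16.7% in H2A, 22.7% in H2B, 21.0% in H3 and 29.7% in H4. Hist3h2ba and Hist4h4 reach 100% and Hist3h2a 87.8%. Sums over a class or cluster do not depend on how counted fragments were shared among its own copies. They would still miss any fragments left uncounted because they match several copies. As the classes differ in such copies, their sums can be compared only roughly.

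Histone H4 and H2B mRNAs made up the largest shares of the summed level. In E14.5 WT the H4 members summed to 1462 ± 158 CPM, H2B to 1418 ± 153, H3 to 1154 ± 197, H1 to 1029.7 ± 123 and H2A to 795 ± 133 (SD, n = 3 each). The H4 and H2B sums did not differ beyond their spread. Levels per kilobase of gene model depend on the models, which differ in length, with 312 bases for Hist1h4d and 2977 for Hist1h1d. Ranks on this scale are therefore only rough, as a long model lowers a gene's value. The highest mean levels over the 12 libraries in H4 were Hist1h4d at 645 CPM per kb and Hist2h4 at 433. In H2B they were Hist1h2bn at 411 and Hist2h2bb at 284. Hist1h2ak at 366 and Hist1h2ab at 160.4 CPM per kb led H2A, Hist1h3e at 309 and Hist1h3c at 251 led H3, and Hist1h1b at 345 and Hist1h1a at 195 led the linker histones. The Hist3 genes were modest on this scale, with Hist3h2ba at 72.6, Hist3h2a at 61.9 and Hist3h2bb-ps at 26.9 CPM per kb. The value of Hist3h2a rests on a model of 1990 bases.

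The largest contrast was between the ages. The sum over all members was 6223, 4984 and 6369 CPM in E14.5 WT (A, B, C) and 2764, 2753 and 3486 CPM in E16.5 WT, a ratio of 0.512. The cKO sums were 7860.5, 5628 and 5924 CPM at E14.5 and 2084, 2778 and 3318 CPM at E16.5. All 6 libraries of the older age lay below all 6 of the younger. In bulk tissue fewer dividing cells and less histone mRNA per dividing cell cannot be told apart, and neither can age and any difference between the runs of the 2 ages.

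**Figure D1:**
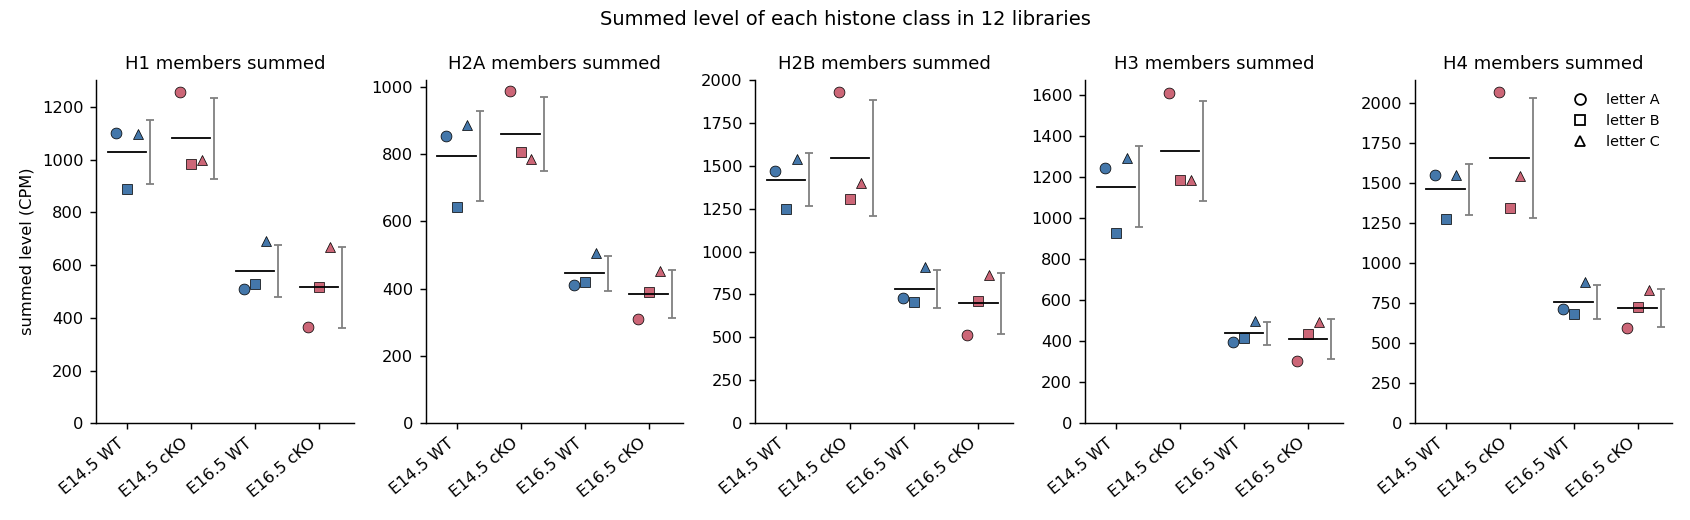
Summed level in CPM of the members of each histone class, with 1 point per library, a black line at the mean and a grey bar of ± 1 SD beside it, for 3 libraries per group. In every class the E16.5 libraries lie below the E14.5 libraries, and H3 has the lowest ratio of E16.5 to E14.5 WT means, 0.379.

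Tested gene by gene between the WT groups (edgeR quasi-likelihood test, 1 fit of 12 libraries), 37 of 67 tested members were lower at E16.5 at an adjusted p under 0.05 and 0 were higher. Over all 15338 genes, 2.15% were called, 1.39% lower and 0.763% higher. The members' median log2 fold change was -1.01 against -0.011 for all genes, and 66 of 67 were below 0. The E16.5 and E14.5 WT libraries did not overlap for 55 members, all lower, where 18.3% of all genes were lower and 17% higher without overlap. DESeq2 called 51 members lower. The count depended on single libraries: it was 0 without E14.5 WT C, E16.5 WT A or E16.5 WT B, 6 without E14.5 WT A, 18 without E16.5 cKO B, 19 without E16.5 WT C and 20 without E14.5 cKO C. It was 6 with embryo sex as a term. Over all of these fits the median stayed between -1.17 and -0.95.

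The H3 class had the lowest median. Its genes encode the core histone whose lysine 4 the COMPASS complexes methylate, and 10 of 12 were called lower, with a median log2 fold change of -1.43. Hist1h3g was at 112, 77.3 and 112 CPM in E14.5 WT and 22.5, 26.9 and 29.9 CPM in E16.5 WT. Its WT libraries were far apart between the ages, with a log2 fold change of -1.93 (SE 0.266, edgeR adjusted p = 0.0129). Hist1h3i went from 106, 81.7 and 111 CPM to 33.7, 36.7 and 35.8 CPM (-1.49, SE 0.169, edgeR adjusted p = 0.00586). The other called H3 genes among the 12 members with the smallest p were Hist1h3a, Hist1h3d, Hist1h3f, Hist1h3e and Hist2h3b, at -1.52, -1.51, -1.47, -1.39 and -1.49. H3 members made up 20.0%, 18.6% and 20.3% of the summed level in E14.5 WT and 14.4%, 15.1% and 14.3% in E16.5 WT. In cKO the same share was 20.5%, 21.0% and 20.1% at E14.5 and 14.47%, 15.6% and 14.9% at E16.5, so the H3 share was lower at E16.5 in both genotypes. Whether H3 members differ from the other classes was not tested, since members of a class share sequence.

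Among H4 genes, 8 of 13 were called lower, with a class median of -1.03. Hist1h4c had the smallest p of all members, at 39.2, 33.9 and 41.0 CPM in E14.5 WT and 15.7, 14.4 and 16.3 CPM in E16.5 WT, a log2 fold change of -1.30 (SE 0.142, edgeR adjusted p = 0.00586). Hist1h4d, the member with the highest level per kb, went from 277, 217 and 286 CPM to 116, 119 and 149 CPM (-1.03, adjusted p = 0.0231). Hist1h4h was called as well (adjusted p = 0.0218). Hist2h4, at -0.72, did not pass (adjusted p = 0.0657).

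H2A and H2B genes, which form the dimers at the rim of the nucleosome, had 9 of 18 and 7 of 18 tested members called lower, with medians of -1.04 and -0.93. Hist1h2ak was at 211, 144 and 212 CPM in E14.5 WT and at 81.6, 77.8 and 88.1 CPM in E16.5 WT (-1.20, edgeR adjusted p = 0.0205). Hist1h2ac, at -1.10, and Hist1h2bb, at -1.35, were called as well (adjusted p = 0.0209 and 0.0218). The groups did not overlap for these 3 genes.

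Of the linker histones, 3 of 6 were called lower, and their median was -0.81. The 2 with the highest level per kb, Hist1h1b and Hist1h1a, were at -0.80 and -0.82 and did not pass (edgeR adjusted p = 0.0693 and 0.0645). Hist1h1c, which encodes H1.2 and is known to give a polyadenylated mRNA as well, was called, at 194, 171 and 217 CPM in E14.5 WT and 105, 109 and 137 CPM in E16.5 WT (-0.73, SE 0.159, adjusted p = 0.0425). Members listed as known to yield polyadenylated mRNA were mixed: Hist4h4 was called lower (-0.93, adjusted p = 0.0408), Hist1h2bc just missed (-0.87, adjusted p = 0.0511), and Hist2h2be and Hist3h2a were at -0.34 and -0.13 (adjusted p = 0.359 and 0.444).

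**Figure D2:**
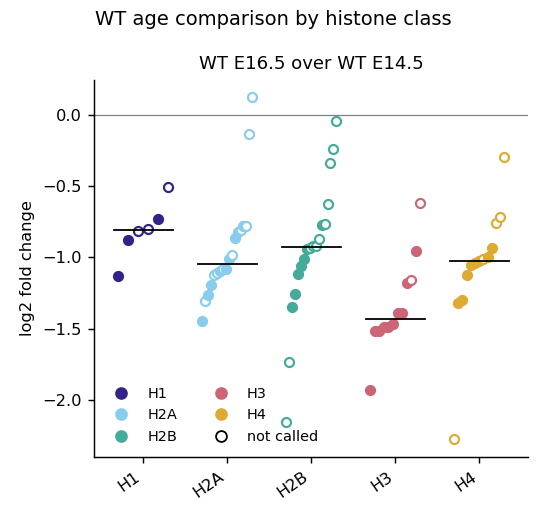
log2 fold change of E16.5 WT over E14.5 WT for each tested member, by histone class, with filled points for members at an adjusted p under 0.05, open points for the others and a black line at the class median. The H3 median, -1.43, is the lowest of the 5, and 1 H2A member, Hist1h2al, lies above 0.

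By cluster, 11 of 23 distal and 24 of 29 tested proximal Hist1 members were called lower, with medians of -1.05 and -1.10. The difference between the blocks was not tested. In Hist2, 1 of 10 was called and the median was -0.79. None of the 3 Hist3 genes passed between the WT ages: Hist3h2ba was at -0.24 (SE 0.121, edgeR adjusted p = 0.214), Hist3h2a at -0.13 (SE 0.108, adjusted p = 0.444) and Hist3h2bb-ps at -0.042 (SE 0.139, adjusted p = 0.869). Their sum was 208, 206 and 236 CPM in E14.5 WT and 194, 180.1 and 211 CPM in E16.5 WT, which overlap, although for Hist3h2ba alone the E16.5 WT libraries all lay below those of E14.5. The share of Hist3 in the summed level went from 3.34%, 4.14% and 3.70% in E14.5 WT to 7.01%, 6.54% and 6.05% in E16.5 WT. A test of the Hist3 genes against the other members was not run.

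**Figure D3:**
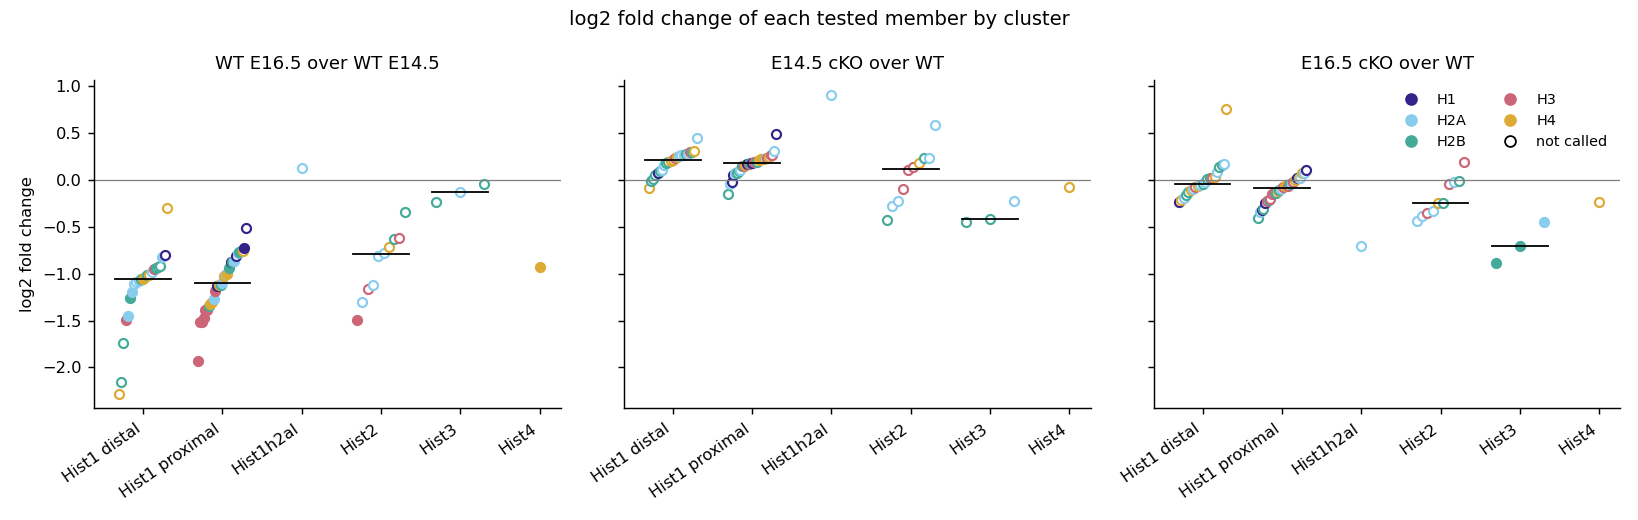
log2 fold change of each tested member by cluster in the WT age comparison and in the 2 cKO comparisons, coloured by class, filled where the adjusted p was under 0.05, with a black line at the median of clusters with several tested members. Hist3 lies near 0 in the age comparison (median -0.13) and lowest of the multi-gene clusters in both cKO comparisons (medians -0.41 and -0.70).

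Cell cycle genes were tested in the same fit. Of 31 S phase and licensing genes 0 were called and 30 had values below 0 in WT, with a median of -0.56. Of 24 G2 and mitosis genes all 24 were below 0 (median -0.83) and 8 were called lower, among them Birc5 at -1.03, Mki67 at -0.87, Aurka at -0.93 and Cenpf at -0.93 (edgeR adjusted p = 0.0295, 0.0402, 0.0437 and 0.0450). Slbp, the protein that binds the stem-loop, was at -0.42 (adjusted p = 0.103), and 0 of 16 genes of histone mRNA 3′ end formation were called. None of 15 histone chaperone genes was called, at a median of -0.47. Among 11 replication-independent and variant histone genes, 3 were called lower: H2afz at -0.88, H2afx at -1.14 and H1fx at -0.86 (adjusted p = 0.0303, 0.0319 and 0.0319). The summed level of 12 apical progenitor markers was 2268 to 2535 CPM in E14.5 WT and 1651 to 2086 CPM in E16.5 WT, and that of 12 neuron markers 4365 to 6312 and 6548 to 7088 CPM. Rpph1, an RNA without a poly(A) tail that is no histone, was called lower as well (-0.71, adjusted p = 0.0482), the 1 called of 14 such RNAs tested. The summed level of these RNAs was 46341 to 55313 CPM in E14.5 WT and 28212 to 38762 CPM in E16.5 WT, without overlap. Rn45s, at -0.59 (adjusted p = 0.0659), was lower in each of the 6 E16.5 libraries than in any E14.5 library. What part these have in the histone values was not tested.

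Few histone genes differed by the test with loss of Ash2l. At E14.5, 0 of 67 tested members were called in either direction, against 2.01% of all 14788 genes (0.352% higher, 1.66% lower). 2 members had an unadjusted p under 0.05, beside 2989 of all 14788 genes, and DESeq2 called 1, Hist3h2ba. The members' median log2 fold change was 0.18, beside 0.025 for all genes, and 54 of 67 were above 0. Members whose cKO libraries all lay above WT numbered 0 (11.9% of all genes), and those all below numbered 2 (14.8% of all genes), Hist3h2ba and Hist3h2bb-ps. The positive median rests on cKO A, which had the highest sum of every class and the meningeal markers given above: without it the median was -0.023. Without WT B it was 0.066. In the joint fit of 12 libraries it was 0.17, and 0.041 with embryo sex as a term. Only the E16.5 libraries inform that term, so it cannot separate sex from genotype at E14.5.

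The genes with the highest level per kb in H4, H3 and H1 show the same overlap. Hist1h4d was at 277, 217 and 286 CPM in E14.5 WT and 348, 241 and 277 CPM in cKO. Hist1h3e was at 194, 139 and 199 CPM in WT and 233, 185 and 183 CPM in cKO. Hist1h1b, the H1.5 gene, was at 335, 258 and 302 CPM in WT and 377, 272 and 286 CPM in cKO. In each of these genes cKO A was the highest library, and cKO B and C lay within the WT range. Summed over all H3 members, the mean of 3 libraries was 1154 ± 197 CPM (SD) for WT and 1327 ± 245 CPM (SD) for cKO.

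At E16.5 the groups outside Hist3 again mostly overlapped when the numbers in the labels were left out. Of 64 tested members, 3 were called lower and 0 higher, against 15.9% of 14865 genes called, 9.88% lower and 5.98% higher. The median was -0.088, beside 0.018 for all genes, with 48 of 64 below 0. It changed sign without cKO A (0.058) or WT C (0.029) and was -0.22 without cKO C. The cKO libraries all lay below WT for 4 members, the 3 Hist3 genes and Hist1h4n, and above WT for 0, against 18.3% and 19.2% of all genes. In this edgeR fit 0 of the 61 tested members outside Hist3 were called, and DESeq2 called none of them. 1 of them had an unadjusted p under 0.05 in the edgeR fit, beside 4692 of all 14865 genes. An edgeR fit with a replicate block, the number in the labels, did call Hist1h1c, Hist1h2af, Hist1h2bf and Hist1h4n lower. Hist1h4d was at 116, 119 and 149 CPM in E16.5 WT and 111, 122 and 151 CPM in cKO. Hist1h3e was at 64.8, 64.6 and 73.7 CPM against 46.3, 66.2 and 72.4 CPM. Hist1h1c was at 105, 109 and 137 CPM against 75.7, 91.3 and 116 CPM. Its groups overlapped, but each cKO library lay below the WT library of the same letter. Outside Hist3 the 3 WT libraries summed to a mean of 2806 ± 406 CPM (SD) and the 3 cKO libraries to 2591 ± 605 CPM (SD).

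The 3 genes called at E16.5 were the whole Hist3 cluster. It is a small group apart from Hist1, with an H2A gene, an H2B gene and Hist3h2bb-ps, which its symbol marks as an H2B pseudogene. Hist3h2ba lies on the plus strand from 58948911 to 58949530. Hist3h2bb-ps, on the minus strand from 58954048 to 58954512, and Hist3h2a, on the plus strand from 58954685 to 58956674, are read away from each other from starts 173 bases apart.

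Hist3h2bb-ps was at 15.9, 13.8 and 15.4 CPM in E16.5 WT and 7.66, 8.25 and 8.65 CPM in cKO. The groups were well apart, with a log2 fold change of -0.89 (SE 0.118, edgeR adjusted p = 0.00356). At E14.5 it was at 14.4, 13.5 and 18.5 CPM in WT and 12.7, 11.1 and 10.1 CPM in cKO, also without overlap, but did not pass (-0.44, SE 0.167, adjusted p = 0.199). The call at E16.5 held when any 1 of the 6 libraries was left out, with values from -0.94 to -0.84.

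Hist3h2ba, the H2B gene of the cluster, was at 52.4, 43.7 and 50.7 CPM in E16.5 WT and 29.5, 25.4 and 36.2 CPM in cKO. The highest cKO library lay below the lowest WT library (-0.70, SE 0.137, edgeR adjusted p = 0.0139). At E14.5 the values were 58.0, 53.6 and 61.8 CPM in WT and 44.6, 42.4 and 42.1 CPM in cKO, again apart (-0.41, SE 0.0943, edgeR adjusted p = 0.0731). This E14.5 value passed with DESeq2 (adjusted p = 0.00351) and in 1 fit of 12 libraries (edgeR adjusted p = 0.0499), and the authors' deposited table calls it too (adjusted p = 0.00648). It did not pass in that joint fit with embryo sex as a term (-0.70, edgeR adjusted p = 0.0545), a term that only the E16.5 libraries inform. Nor did it pass with any 1 of the 6 libraries left out (edgeR adjusted p from 0.0733 to 0.268).

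Hist3h2a, the H2A gene and the most abundant of the 3, was at 125, 123 and 145 CPM in E16.5 WT and 85.3, 100.4 and 105 CPM in cKO. All 3 cKO libraries were lower (-0.44, SE 0.0999, edgeR adjusted p = 0.0227). At E14.5 it was at 136, 139 and 155 CPM in WT and 120.4, 136 and 109 CPM in cKO, where cKO B met the lowest WT library (-0.23, SE 0.107, adjusted p = 0.291). The authors' deposited table gives log2 ratios of WT over knockout at E16.5 of 0.43, 0.65 and 0.83 for Hist3h2a, Hist3h2ba and Hist3h2bb-ps, with adjusted p = 0.00232, 1.44e-04 and 7.83e-07, and calls no other member at that age. The E16.5 calls of Hist3h2a and Hist3h2ba were both lost without WT A, cKO B or WT C (edgeR adjusted p up to 0.0521 for Hist3h2ba and 0.0821 for Hist3h2a), and that of Hist3h2a without WT B (edgeR adjusted p = 0.0582). Hist3h2bb-ps was the 1 member called in the first 3 cases.

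**Figure D4:**
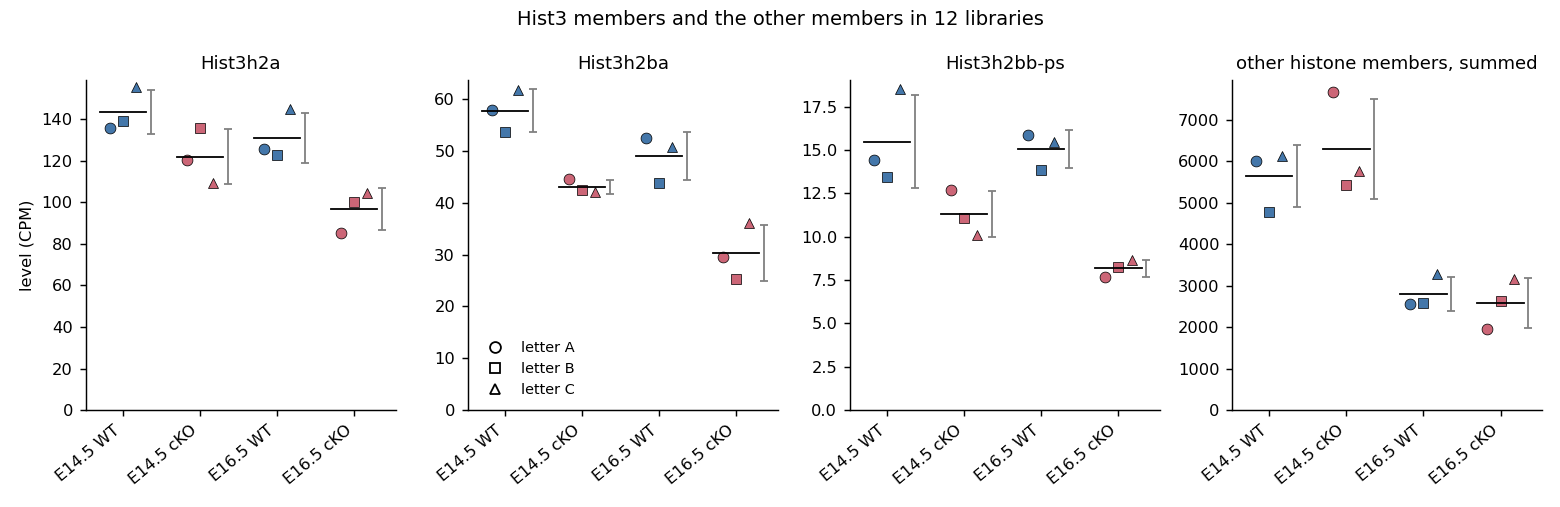
Level in CPM of the 3 Hist3 genes and the summed level of all other members, with 1 point per library (circles, squares and triangles for A, B and C), a black line at the mean and a grey bar of ± 1 SD, for 3 libraries per group. The E16.5 cKO libraries lie below the E16.5 WT libraries in each Hist3 gene, while the other members overlap (2806 ± 406 CPM in WT, 2591 ± 605 CPM in cKO).

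The effect of Ash2l loss was not shown to change with age. The difference between the E16.5 and E14.5 effects was -0.42 (SE 0.200) for Hist3h2bb-ps, -0.27 (SE 0.172) for Hist3h2ba and -0.20 (SE 0.153) for Hist3h2a. No gene of 15338 passed this edgeR test (0% called; 318 had an unadjusted p under 0.05, and DESeq2 called 0). None of the 67 tested members passed either or had an unadjusted p under 0.05, and their median difference was -0.26 beside 0.030 for all genes.

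Promoters of the Hist3 genes are shown because these genes moved together, next to that of Hist1h4c, the member with the smallest p between the ages. A RefSeq promoter (GRCm38.p6, 250 bases before to 50 after the start) was found for 62 of 69 members, though not for Hist3h2bb-ps. Capitals mark matches, on either strand, to the octamer ATTTGCAT, to CCAAT and to TATAAA.
Hist3h2a (chr11:58954435-58954734, plus strand): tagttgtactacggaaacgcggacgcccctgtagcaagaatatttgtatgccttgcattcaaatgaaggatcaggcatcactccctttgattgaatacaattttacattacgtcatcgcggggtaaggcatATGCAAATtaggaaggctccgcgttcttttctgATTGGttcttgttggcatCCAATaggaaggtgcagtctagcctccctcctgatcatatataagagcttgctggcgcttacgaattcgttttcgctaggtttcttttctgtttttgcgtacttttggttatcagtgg
Hist3h2ba (chr11:58948661-58948960, plus strand): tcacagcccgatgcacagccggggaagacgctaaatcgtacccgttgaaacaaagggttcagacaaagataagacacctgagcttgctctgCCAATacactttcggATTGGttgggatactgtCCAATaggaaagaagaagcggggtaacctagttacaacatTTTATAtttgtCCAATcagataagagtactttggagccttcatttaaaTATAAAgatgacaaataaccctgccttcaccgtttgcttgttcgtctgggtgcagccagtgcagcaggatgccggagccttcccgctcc
Hist1h4c (chr13:23698409-23698708, minus strand): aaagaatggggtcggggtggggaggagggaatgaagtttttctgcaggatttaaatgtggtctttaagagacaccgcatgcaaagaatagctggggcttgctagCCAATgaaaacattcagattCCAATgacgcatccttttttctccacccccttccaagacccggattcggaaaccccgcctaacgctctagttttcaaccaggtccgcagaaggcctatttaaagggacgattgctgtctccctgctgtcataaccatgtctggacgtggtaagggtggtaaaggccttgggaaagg
Hist3h2a held the octamer and Hist3h2ba did not. The octamer was in 7 of 18 H2A and 7 of 16 H2B promoters and in none of H1, H3 or H4, against 1.74% of all 32851 promoters. CCAAT was in all 50 of the H1, H2A, H2B and H3 promoters and in 3 of 12 H4 promoters, against 37.4% of all, and TATAAA in 35 of 62 members, against 13.6%. Hist3h2ba held TATAAA where Hist3h2a did not. A letter match is a description and not a bound site.

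Other genes of DNA replication and of histone supply were tested in the same fit of the E16.5 knockout. Of 31 S phase and licensing genes, 4 were called higher and 0 lower: Cdc7, the kinase that fires origins, at 0.33, Ccne1, cyclin E1, at 0.77, Cdk2, its kinase, at 0.51 and Prim1, a primase subunit, at 0.41 (edgeR adjusted p = 0.0213, 0.0255, 0.0469 and 0.0492). The median of the list was 0.20. Of 24 G2 and mitosis genes, 19 had values above 0, with a median of 0.24, and 0 were called higher. Plk1, a mitotic kinase, was called lower, against the direction of most of the list (-0.77, edgeR adjusted p = 0.0397). Among variant histones H2afy2, a macroH2A gene, was the 1 of 11 called, lower at -0.43 (SE 0.097, adjusted p = 0.0234), with 132, 125 and 136 CPM in WT and 90.3, 90.2 and 113 CPM in cKO. In the list of 3′ end formation the smallest p belonged to Mblac1 and Mif4gd, at -0.51 and -0.50 (adjusted p = 0.0962 and 0.113), and among chaperones to Tonsl and Asf1b, at 0.32 and 0.51 (adjusted p = 0.128 and 0.135). Neither list had a called gene in either direction at E16.5. At E14.5 none of these lists had a called gene: the smallest p belonged to Ccne1 and Gins2 (0.66 and 0.69, adjusted p = 0.175 and 0.191), Ccnb2 and Ttk (-0.37 and 0.41, adjusted p = 0.356 and 0.394), and H2afy2 (-0.31, adjusted p = 0.160).

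Cell type markers differed in the same E16.5 comparison. The summed level of 12 neuron markers was 6548 to 7088 CPM in E16.5 WT and 4958 to 5178 CPM in cKO, with 8 of 12 called lower, such as Stmn2 at -1.30 and Tubb3 at -0.53 (edgeR adjusted p = 8.19e-04 and 0.00898). Apical progenitor markers summed to 1651 to 2086 CPM in WT and 1762 to 2409 CPM in cKO, with Hopx, Hes5 and Nes called higher, at 0.82, 0.68 and 0.46 (adjusted p = 0.00976, 0.0412 and 0.0485). Intermediate progenitor markers summed to 551 to 675 and 402 to 615 CPM, with Sstr2 called lower of 8 (-0.72, adjusted p = 0.0182). All 5 tested choroid plexus markers had values below 0 in cKO at both ages, and 0 were called. This direction rests on E14.5 WT A and E16.5 WT C. The other WT sums were 32.2 and 41.9 CPM at E14.5 and 7.64 and 26.8 CPM at E16.5. In cKO the sums were 27.0 to 59.4 CPM at E14.5 and 12.5 to 31.4 CPM at E16.5. Neuron markers went the same way at E14.5, with all 12 below 0 and Nefm called lower. Their E14.5 sums were 4365 to 6312 CPM in WT and 2502 to 4459 CPM in cKO. Of the 12 apical progenitor markers, 9 were above 0 at E14.5, and Hopx was called higher. All 7 tested GABAergic and ventral markers were below 0 at E14.5, with 0 called. Their sums overlapped, at 67.3, 309 and 125 CPM in E14.5 WT and 22.6, 90.4 and 70.5 CPM in cKO, and WT B was the highest. The part of these markers in the Hist3 values was not tested.

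Several members varied widely between libraries of 1 group. Hist1h4m and Hist1h4n have identical coding sequences, in the distal block. Hist1h4m was at 50.3, 79.7 and 47.4 CPM in E14.5 WT, 113, 87.5 and 3.53 CPM in E14.5 cKO, 0.690, 1.05 and 34.5 CPM in E16.5 WT and 0.904, 29.0 and 32.4 CPM in E16.5 cKO. The low libraries belong to both genotypes. The sum of the pair was far more even, at 190.2, 153 and 203 CPM and 234, 175 and 215 CPM at E14.5, and at 105, 103 and 130.1 CPM and 94.0, 107 and 122 CPM at E16.5. Hist1h4n alone was at 139.9, 73.7 and 156 CPM in E14.5 WT and 121, 87.9 and 212 CPM in cKO, so its highest library, cKO C, was the one where Hist1h4m was low. The single-gene values of this pair are therefore uncertain, including the E16.5 value of Hist1h4n.

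Hist1h2al, the lone H2A member with a 3-block model and a pseudogene by its current symbol, had the widest range of all members. It was at 0.150, 0.126 and 92.9 CPM in E14.5 WT and 70.2, 0.0697 and 103 CPM in cKO, so that both genotypes held libraries near 0. At E16.5 it lay between 16.54 and 56.8 CPM in all 6 libraries. Hist2h2ac was at 114, 78.9 and 35.8 CPM in E14.5 WT and 77.0, 84.1 and 26.5 CPM in cKO, low in the C library of both genotypes. Hist2h2bb, in the same cluster, was highest in WT C, at 138, 109.8 and 252 CPM, and was at 233, 133 and 215 CPM in cKO. Neither passed between genotypes at either age.

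**Figure D5:**
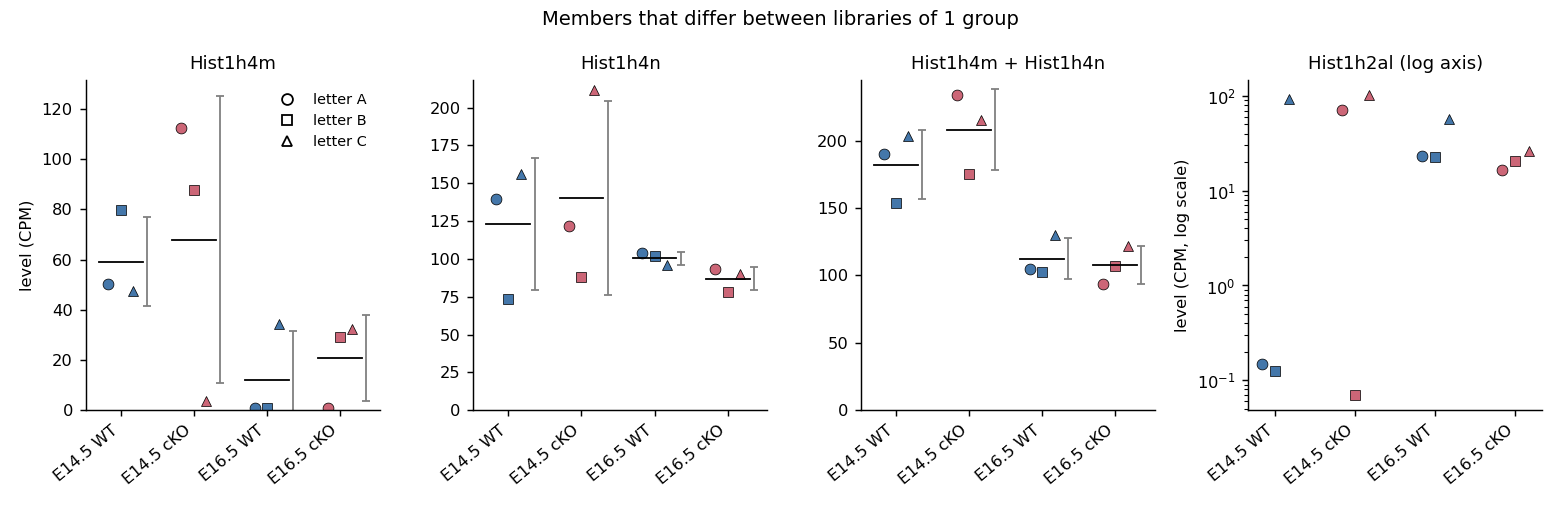
Level in CPM of Hist1h4m, Hist1h4n, their sum and Hist1h2al (log axis) in each library, with circles, squares and triangles for A, B and C and, in the first 3 panels, a black line at the mean and a grey bar of ± 1 SD for 3 libraries per group. Hist1h4m runs from 0.690 to 113 CPM, while the sum of the identical pair stays between 94.0 and 234 CPM.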

How the data were processed

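RNA of 12 dorsal cortex libraries was extracted with TRIzol, per the labels. The authors aligned reads to mm10 with STAR 2.5.2b, per the submitters' processing notes, and deposited raw counts per RefSeq gene from featureCounts 1.5.2 (per the file headers: paired fragments, strand setting 2, minimum overlap 25 bases). That command names no option for fragments with several hits, so identical copies are uncertain. The authors' deposited table for each age gives the log2 ratio of WT over knockout and an adjusted p-value from DESeq2 1.14.1. Its 12 columns of normalised library values were not used.

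Counts were tested with edgeR 4.0.16 (R 4.3.3): filterByExpr, TMM, a robust quasi-likelihood fit, and Benjamini-Hochberg adjustment over all genes called at 0.05. The cKO comparisons each took the 6 libraries of their age; the age difference and the WT ages came from a joint model of 12. SE is the log2 fold change over the square root of F. Alternatives were RLE scaling, library totals, no filter, DESeq2 1.42.0, a replicate block, joint fits with and without embryo sex, and each library left out. As sex and genotype coincide at E14.5, the sex term was estimated from the E16.5 libraries alone. On simulated data, recovery of 2-fold changes was 58.5% in the E14.5 step (14788 genes), 50.9% in the E16.5 step (14865), 55.7% for the age difference and 61.8% between WT ages (15338 each); for 1.5-fold it was 17.2%, 41.1%, 7.41% and 51.5%.

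Chi-square per degree of freedom between libraries of a group was at least 9.06, so none was treated as a copy. The labels do not say what separates libraries of a group, so p-values measure only the spread between these libraries. By their sex transcripts, each E16.5 genotype held male and female libraries, so those did not all come from the same embryo. How much of the spread is technical is not known. The members, gene lists and tests were chosen with earlier results of these data known. Named are Ash2l, called members (up to 12 by p), the 2 highest per kb in each class, the polyadenylated list, and up to 4 called or 2 other genes of each related list; the Hist3 genes and members uneven between libraries were singled out after their values were seen.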

Additional observations from a re-analysis of the deposited data

How the results depend on the processing

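At E14.5, 2.01% of the genes tested were called, 8.64% with DESeq2, 8.65% with the replicate block, 8.71% in 1 fit of 12 libraries, 0.835% with embryo sex and 0.0334% to 2.33% with 1 library left out. Members called lower went from 0 to 1 (Hist3h2ba) with DESeq2, with the block and in 1 fit of 12 libraries. At E16.5, 15.9% were called, 32.2% with the replicate block, 10.2% with embryo sex and 6.50% to 19.0% with 1 library left out. Members called lower went from 3 to 7 with the block, which kept the 3 Hist3 genes and added Hist1h1c, Hist1h2af, Hist1h2bf and Hist1h4n, and to between 1 and 3 with 1 library left out. For the age difference 1 gene was called with the block (0.00652%) and 0 without it. Between the WT ages, 2.15% were called, 13.1% with DESeq2, 0.0652% with embryo sex and 0.0064% to 14.2% with 1 library left out, and members called lower were 37, 6 with embryo sex and 0 to 51 with 1 library left out. Hist3h2bb-ps changed sign between the WT ages without E14.5 WT C (0.11) and without E16.5 WT B (0.015), in a range of -0.12 to 0.11. Of the other values for single members, 470 kept direction and side of the threshold, 93 no longer passed and 26 newly passed. The causes were not tested.

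Same-numbered WT and cKO libraries had correlations of 0.252, 0.289 and 0.001 at E14.5 and 0.253, 0.192 and 0.094 at E16.5. Between different numbers they ran from -0.286 to 0.087 at E14.5 and from -0.235 to 0.085 at E16.5. Each E16.5 WT library, and E14.5 WT A and B, correlated best with the cKO library of its own number. The main fits left the numbers out, and the fits with the replicate block, given above, called more genes in both cKO comparisons. Whether the numbers pair the libraries was not tested further. In E14.5 the third pair did not correlate best with its own number. Scaling did not move the median of all genes by more than 0.1 in any comparison. Each group holds 3 libraries of 14318147 to 24719047 counts, and which of the 2 limits precision was not tested.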
